A study of Homo sapiens with 21 samples.

Results

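Glyphosate plus 2,4-D was 1 of 5 exposures given to C3A cells (genotype WT), a derivative of the human hepatoma line HepG2 that keeps many liver functions, and its 3 RNA-seq libraries among the 21 of the series were set against the 6 libraries of unexposed cells. The libraries were chosen by their labels. The mixture held glyphosate at 5.6 µM (0.95 µg/mL) and 2,4-D at 2.5 µM (0.56 µg/mL). Cells stayed in it for 48 h, and each dose was set 1000-fold under the compound's IC50. The same medium with serum was used throughout. The other 4 exposures had 3 libraries each: AMPA (34 µM, 3.7 µg/mL) with 2,4-D at 2.5 µM, 2,4-D alone at 2.5 µM, glyphosate alone at 5.6 µM and AMPA alone at 34 µM. Glyphosate and 2,4-D are herbicides, and AMPA is a breakdown product of glyphosate. The unexposed libraries are labelled as replicates 1 to 6. Replicates 1 to 3 and 4 to 6 are also used below as separate sets, a split that the labels do not make. These sets stood apart for many genes. The labels of the unexposed libraries name no vehicle and no batch. Nothing in the labels says that replicates came from separate cultures or passages, so p-values measure the spread between these libraries, which may be technical. All libraries are from 1 line, and all exposed libraries could share a difference from the unexposed ones that is not the compounds: exposure and such a batch cannot be told apart.

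Cells answer damage through a few gene programmes. Heat shock factor 1 (HSF1) switches on cytosolic chaperones when proteins misfold, the unfolded protein response raises the folding machinery of the endoplasmic reticulum (ER) when secreted proteins misfold, ATF4 answers amino acid shortage and other stresses through the integrated stress response, and NRF2 raises enzymes against oxidants and electrophiles. In hepatocytes, which secrete most plasma proteins and handle most foreign compounds, the ER and NRF2 programmes have a large load. In bulk RNA, fewer cells of a type and less RNA per cell cannot be told apart.

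Of 28808 listed genes, 23375 were listed for all groups. Of these, 13405 had at least 1 FPKM (read fragments per kilobase of gene, scaled to library size) in at least 3 libraries. They were tested with limma on log2(FPKM + 1). All log2 differences below are on that scale, which understates low genes, and a gene is called at an adjusted p (Benjamini-Hochberg over all 13405) under 0.05. Reads recovered from the FPKM came to 15.3 to 16.3 M per mixture library and 17.4 to 19.8 M per unexposed library. Ribosomal protein genes took 10.1 to 10.3% of the summed FPKM in the mixture libraries and 7.23 to 8.45% in the unexposed ones. The 8 hepatoma markers summed to 10603 to 11341 FPKM in mixture libraries and 6382 to 10207 FPKM in unexposed ones. Of 8 markers of other cell types, 3 were analysed here (COL1A1, PECAM1 and LYVE1). They summed to 1.30 to 1.53 FPKM in mixture libraries and 0.425 to 1.14 FPKM in unexposed ones; COL1A1 and PECAM1 stayed under 1 FPKM, and LYVE1 was 0.60 higher (log2) in the mixture. Whether these shifts bear on the results was not tested.

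In the mixture 6445 genes differed from unexposed cells, 48.1% of those tested: 3408 (25.4%) were higher and 3037 (22.7%) lower. Most differences were small. Only 218 called genes differed at least 2-fold. Against unexposed replicates 1 to 3, 7351 genes (54.8%) were called, 3775 higher (28.2%) and 3576 lower (26.7%). Against replicates 4 to 6, 6262 (46.7%) were called, 3345 higher (25% of genes) and 2917 lower (21.8%). The mixture was higher than both unexposed sets for 2513 genes (18.7%) and lower than both for 2153 (16.1%). It was called with opposite signs against the sets for 211. All 3 mixture libraries lay outside all 6 unexposed ones for 5418 genes (40.4%). With at least a 2-fold difference from each set, 80 genes were higher and 27 lower. Rescaling to TPM, which gives every library the same sum, moved the median gene by -0.12 on the log2 scale against all 6 and turned the split to 2127 higher and 4631 lower against all 6, to 2465 and 5269 against replicates 1 to 3 and to 2186 and 4147 against replicates 4 to 6, so small increases below rest on the scaling.

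**Figure D1:**
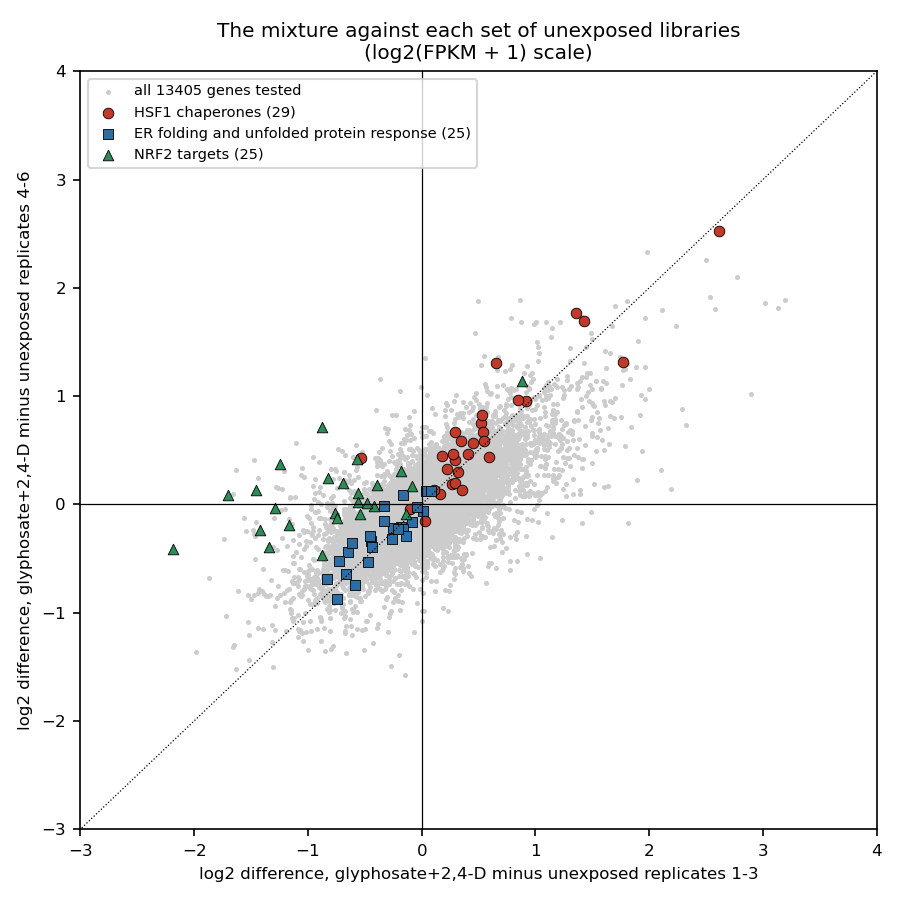
Each point is a tested gene: the horizontal axis is the log2 difference of the mixture from unexposed replicates 1 to 3, the vertical axis that from replicates 4 to 6, both on log2(FPKM + 1). HSF1 chaperones lie mostly above 0 on both axes, ER folding genes mostly below 0 on both, and 8 of 25 NRF2 targets were called below 0 on the first and above 0 on the second.

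The chaperones under HSF1 were higher in the mixture almost as a group. Of 29 tested HSF1 targets, 25 rose, none fell, and 4 (SERPINH1, UBB, DNAJB4 and HSF2) were not called. Over all tested genes 25.4% rose and 22.7% fell. The median difference was 0.46, against 0.00 over all tested genes. The promoters of 2 chaperones and, for contrast, of 2 ER chaperones described further on are shown because their levels moved in opposite directions and their promoters hold a match; in that of HSPA1A, which is higher in the mixture, the heat shock element was not found. They are RefSeq sequences on GRCh38.p14, 250 bases before to 50 after the gene's start and read along the gene, with matches on either strand in capitals to the heat shock element (GAA, TTC and GAA, each 2 free bases apart) or to the ER stress element (CCAAT and CCACG, 9 free bases apart). Matches of 1 element may overlap.
HSPA6, chr1:161524290-161524589 (+), heat shock element: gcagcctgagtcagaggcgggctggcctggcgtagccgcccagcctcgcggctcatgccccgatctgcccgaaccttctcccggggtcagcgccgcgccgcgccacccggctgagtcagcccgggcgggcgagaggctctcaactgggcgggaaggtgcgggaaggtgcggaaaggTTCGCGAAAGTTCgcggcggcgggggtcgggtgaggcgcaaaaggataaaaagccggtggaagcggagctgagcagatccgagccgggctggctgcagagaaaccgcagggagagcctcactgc
HSPA8, chr11:123062087-123062386 (-), heat shock elements: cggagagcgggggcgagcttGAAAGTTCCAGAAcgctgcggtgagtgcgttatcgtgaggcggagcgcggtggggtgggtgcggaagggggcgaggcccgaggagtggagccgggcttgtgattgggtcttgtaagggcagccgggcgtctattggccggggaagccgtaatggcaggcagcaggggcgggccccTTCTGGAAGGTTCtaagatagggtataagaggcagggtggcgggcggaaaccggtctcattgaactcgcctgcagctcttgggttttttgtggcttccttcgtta
HSPA5, chr9:125241294-125241593 (-), ER stress element: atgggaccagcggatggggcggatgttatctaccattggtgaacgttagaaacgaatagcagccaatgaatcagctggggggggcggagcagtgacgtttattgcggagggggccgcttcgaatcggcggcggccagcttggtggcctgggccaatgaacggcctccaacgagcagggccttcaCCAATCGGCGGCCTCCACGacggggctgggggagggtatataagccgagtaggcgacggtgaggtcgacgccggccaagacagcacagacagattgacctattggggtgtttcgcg
HSP90B1, chr12:103930160-103930459 (+), ER stress elements: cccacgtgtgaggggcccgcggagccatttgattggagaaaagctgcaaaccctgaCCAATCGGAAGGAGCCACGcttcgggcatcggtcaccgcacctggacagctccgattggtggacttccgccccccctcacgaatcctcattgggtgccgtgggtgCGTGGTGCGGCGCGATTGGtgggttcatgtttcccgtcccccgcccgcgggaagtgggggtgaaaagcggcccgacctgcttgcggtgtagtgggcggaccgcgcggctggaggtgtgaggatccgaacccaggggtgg
The heat shock element stood in a promoter of 9 of the 25 chaperone genes with a RefSeq promoter (36%), in 40 of 12494 promoters of tested genes (0.320%) and in 172 of all 35116 promoters (0.490%). The ER stress element stood in a promoter of 8 of 24 ER folding genes (33.3%), in 17 of the 12494 (0.136%) and in 27 of the 35116 (0.0769%). No promoter of the chaperone list held the ER stress element, and none of the ER folding list held the heat shock element. Here and for the elements below, lists are counted by gene and the background by promoter. A gene with several promoters thus has more chances of a match within a list. A match describes the letters and is not a measured binding site.

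HSPA6 (ENSG00000173110), a strictly stress-inducible HSP70 of chromosome 1, showed the largest difference of the chaperones. It had 8.76, 13.2 and 18.2 FPKM in the mixture libraries, against 1.02 to 1.68 FPKM (median 1.37) in the unexposed ones. Every mixture library lay above every unexposed library, with the widest spread among the mixture libraries themselves. The difference was 2.57 ± 0.16 (log2, SE; adjusted p = 1.61e-09), and it was 2.61 against replicates 1 to 3 and 2.52 against replicates 4 to 6. HSPA6 rests on 326 to 639 reads per mixture library, and reads from its near-copy HSPA7 (0.132 to 0.197 FPKM, not tested) may be split with it. HSPA1A, the major inducible HSP70, had 65.0, 67.7 and 88.3 FPKM in the mixture and 20.4 to 27.2 FPKM (median 25.0) in unexposed cells. Again no libraries overlapped, and the difference was 1.56 ± 0.11 (adjusted p = 7.34e-09). HSPA1B, almost identical in sequence to HSPA1A so that the split between them is uncertain, had 57.2, 59.8 and 70.8 FPKM in the mixture and 15.9 to 25.3 FPKM without it. The mixture libraries of this copy were likewise all the higher ones.

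Of the partners of HSP70, DNAJB1, HSPH1 and BAG3 were higher and DNAJB4 was not called. DNAJB1, its main inducible HSP40 co-chaperone, had 79.8, 74.1 and 74.0 FPKM in the mixture and 38.2 to 40.4 FPKM (median 39.3) in unexposed cells. Both groups were tight and did not overlap, for a difference of 0.93 ± 0.04 (adjusted p = 6.26e-11). HSPH1, a nucleotide exchange factor of HSP70, had 22.5, 20.3 and 20.98 FPKM in the mixture and 7.20 to 13.9 FPKM in unexposed cells; its difference was 0.65 against replicates 1 to 3 and 1.30 against 4 to 6, the same sign with unequal size. BAG3, which links HSP70 to autophagy, had 20.995, 17.6 and 16.6 FPKM in the mixture and 10.8 to 15.3 FPKM in unexposed cells. Its difference was 0.48 (adjusted p = 0.000695), but 0.29 against replicates 1 to 3, which was not called under TPM.

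A small heat shock protein, an HSP90 and 2 constitutive chaperones were higher as well. HSPB1, the small heat shock protein HSP27, had 49.96, 50.7 and 55.3 FPKM in the mixture and 13.5 to 22.6 FPKM in unexposed cells, a difference of 1.54. HSP90AA1, the inducible HSP90, had 192, 207 and 202 FPKM in the mixture and 99.2 to 113 FPKM in unexposed cells, a difference of 0.91. These libraries were clearly separate. HSPA8, the constitutive HSP70 whose promoter is printed above, had 221, 218 and 228 FPKM in the mixture and 149 to 167 FPKM in unexposed cells, a difference of 0.51 (adjusted p = 2.34e-08). HSPD1, the mitochondrial HSP60, had 602, 657 and 615 FPKM in the mixture and 480 to 583 FPKM in unexposed cells, a difference of 0.25 (adjusted p = 0.00294). Of the 29 chaperones, 24 (82.8%) were called higher against both unexposed sets, as were 18.7% of all tested genes. Under TPM 23 rose and SERPINH1 and UBB fell, with a median of 0.34.

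**Figure D2:**
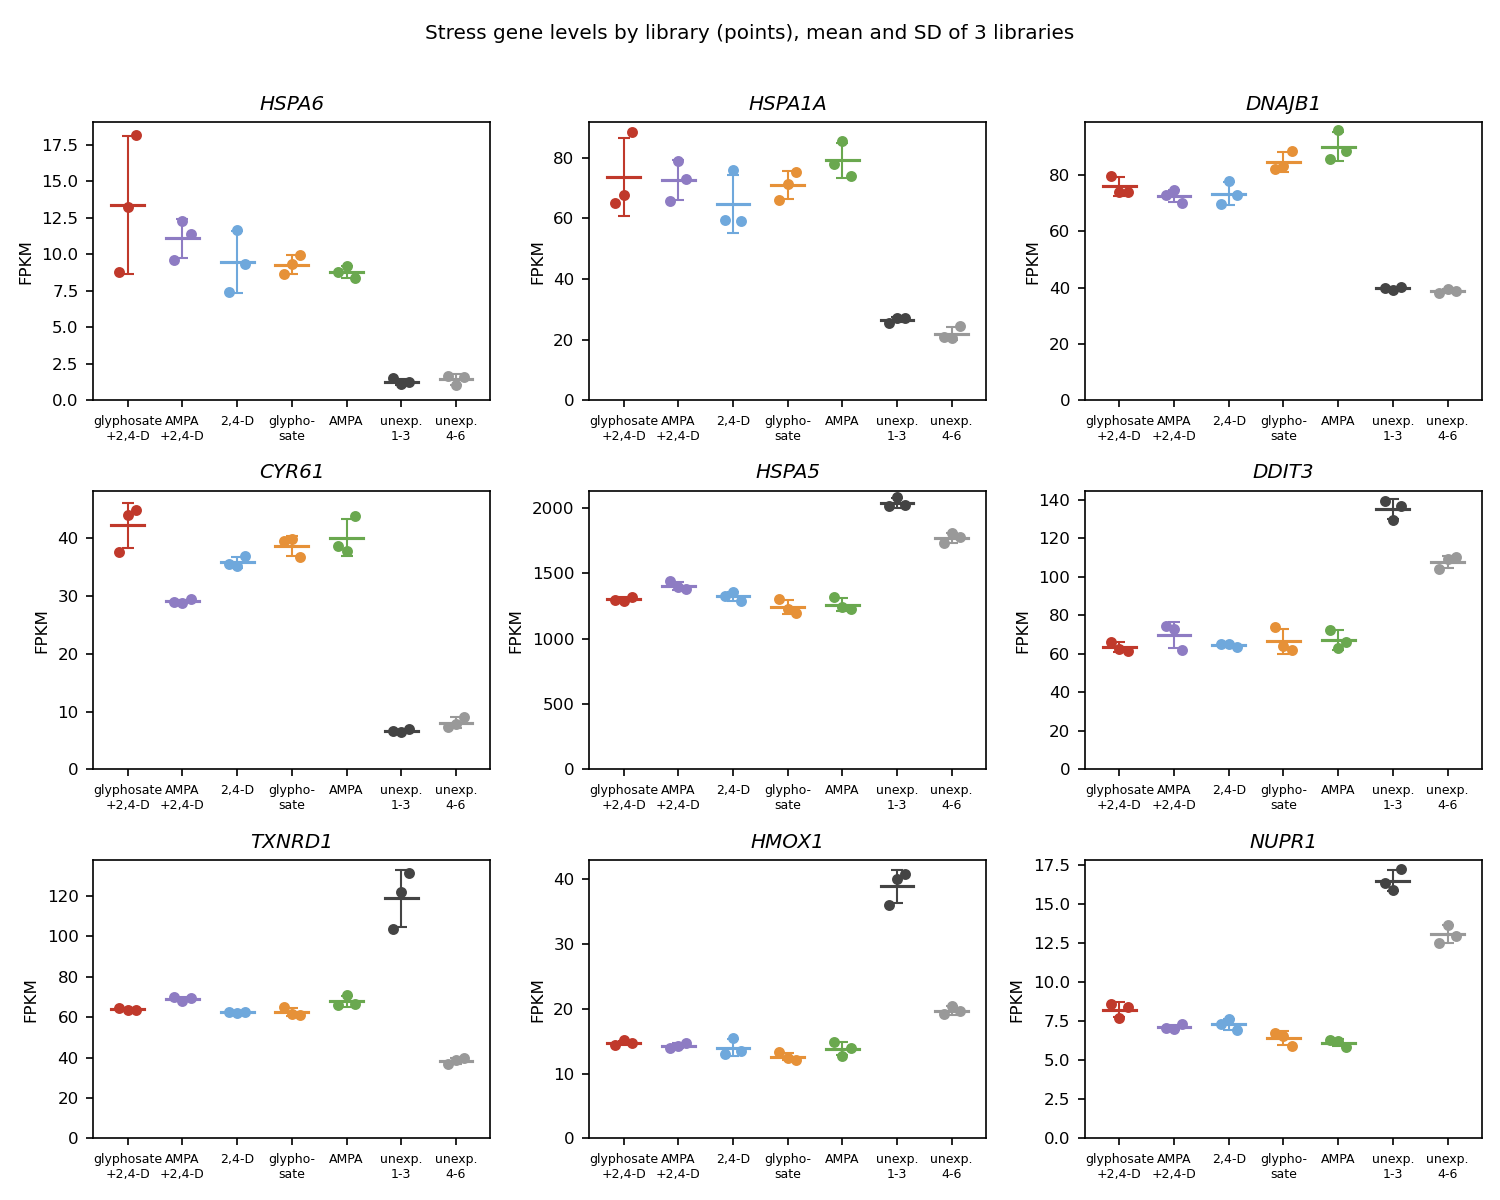
FPKM of 9 stress genes in every library (points), with the mean (bar) and SD of each group; groups run from the mixture through the other exposures to the 2 unexposed sets. HSPA6, HSPA1A, DNAJB1 and CYR61 sit above, and HSPA5 and DDIT3 below, both unexposed sets, with the other exposures near the mixture, and TXNRD1 in the mixture lies between the unexposed sets.

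Immediate early genes, which are transcribed within minutes of a stimulus, were also mostly higher. Of 26 tested, 22 rose and 2 fell, with a median of 0.83, where 25.4% of all tested genes rose and 22.7% fell. Higher than both unexposed sets were 22 (84.6%), beside 18.7% of all tested genes. CYR61 (CCN1), a secreted matrix protein and YAP target, had 37.7, 44.0 and 44.9 FPKM in the mixture and 6.39 to 9.08 FPKM (median 7.10) in unexposed cells. There was no overlap, and the difference was 2.38 ± 0.08 (adjusted p = 1.84e-12). JUNB, an AP-1 subunit, had 23.5, 21.4 and 22.9 FPKM in the mixture and 7.42 to 8.88 FPKM in unexposed cells, a difference of 1.37. FOS, its partner in AP-1, had 4.29, 4.85 and 4.94 FPKM in the mixture and 1.19 to 2.18 FPKM in unexposed cells, a difference of 1.13. EGR1, a zinc finger factor of the same early wave, had 23.4, 29.2 and 26.6 FPKM in the mixture and 9.80 to 16.7 FPKM in unexposed cells, a difference of 0.97. ATF3, a stress-induced repressor, had 17.9, 16.6 and 14.7 FPKM in the mixture and 7.48 to 9.90 FPKM in unexposed cells, a difference of 0.84. In each of these genes the mixture libraries all stood above the unexposed ones. The 2 that fell were MYC, by 0.30, and JUND, by 0.20.

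The folding machinery of the ER was lower in the mixture. Of 25 tested genes of ER folding and the unfolded protein response, 19 fell and 1 (ERO1B, 0.10) rose, with a median of -0.24. Over all tested genes 22.7% fell and 25.4% rose. Called lower against both unexposed sets were 19 (76%), beside 16.1% of all tested genes. Under TPM 22 fell and none rose. HSPA5 (BiP), the HSP70 of the ER and a common marker of ER stress, had 1299, 1287 and 1318 FPKM in the mixture and 1731 to 2084 FPKM (median 1909) in unexposed cells. All 3 mixture libraries were below all 6 unexposed ones, by 0.55 ± 0.06 (adjusted p = 4.13e-07), by 0.65 against replicates 1 to 3 and by 0.44 against replicates 4 to 6. PDIA4, a disulfide isomerase, had 438, 434 and 424 FPKM in the mixture and 645 to 753 FPKM in unexposed cells, a difference of -0.67 (adjusted p = 1.41e-08). CRELD2, an ER stress-induced folding factor, had 15.3, 14.04 and 14.8 FPKM in the mixture and 23.3 to 29.3 FPKM in unexposed cells, a difference of -0.81. SDF2L1, a subunit of BiP's cofactor complex, had 71.9, 68.0 and 73.7 FPKM in the mixture and 113 to 128 FPKM in unexposed cells, a difference of -0.76. In these genes too the groups did not overlap. MANF, a secreted ER protein, differed by -0.65. HSP90B1, the ER's HSP90, whose promoter is printed above, had 1288, 1313 and 1303 FPKM in the mixture and 1421 to 1527 FPKM in unexposed cells, a smaller difference of -0.19.

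ATF4 targets were lower in the same libraries. Of 24 tested, 17 fell and 3 rose, with a median of -0.38, where 22.7% of all tested genes fell and 25.4% rose. Called lower against both unexposed sets were 16 (66.7%), beside 16.1% of all tested genes. DDIT3 (CHOP), a factor of the ER stress death pathway, had 66.2, 62.3 and 61.5 FPKM in the mixture and 104 to 140 FPKM (median 120) in unexposed cells. The mixture libraries were all lower, by 0.92 ± 0.09 (adjusted p = 2.78e-07). SLC6A9, a glycine transporter, had 4.64, 4.46 and 4.50 FPKM in the mixture and 11.3 to 15.5 FPKM in unexposed cells, a difference of -1.36. NUPR1, a small stress-induced chromatin protein, had 8.59, 7.70 and 8.38 FPKM in the mixture and 12.5 to 17.2 FPKM in unexposed cells, a difference of -0.76 ± 0.08 (adjusted p = 5.36e-07). Neither gene's libraries overlapped. The 3 that rose were PPP1R15A (GADD34), which reverses the eIF2 alpha phosphorylation upstream of ATF4, GDF15, a circulating stress hormone, and VLDLR, a lipoprotein receptor. PPP1R15A had 48.0, 46.4 and 44.4 FPKM in the mixture and 32.2 to 40.1 FPKM in unexposed cells, a difference of 0.37. GDF15 had 544, 495 and 493 FPKM in the mixture and 298 to 386 FPKM in unexposed cells, a difference of 0.58. The cyclic AMP response element stood in a promoter of 1 of 20 ATF4 targets with a RefSeq promoter, PPP1R15A, and in 2.95% of the promoters of tested genes. VLDLR differed by 0.15, and by 0.11 against replicates 1 to 3, where it was not called.

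**Figure D3:**
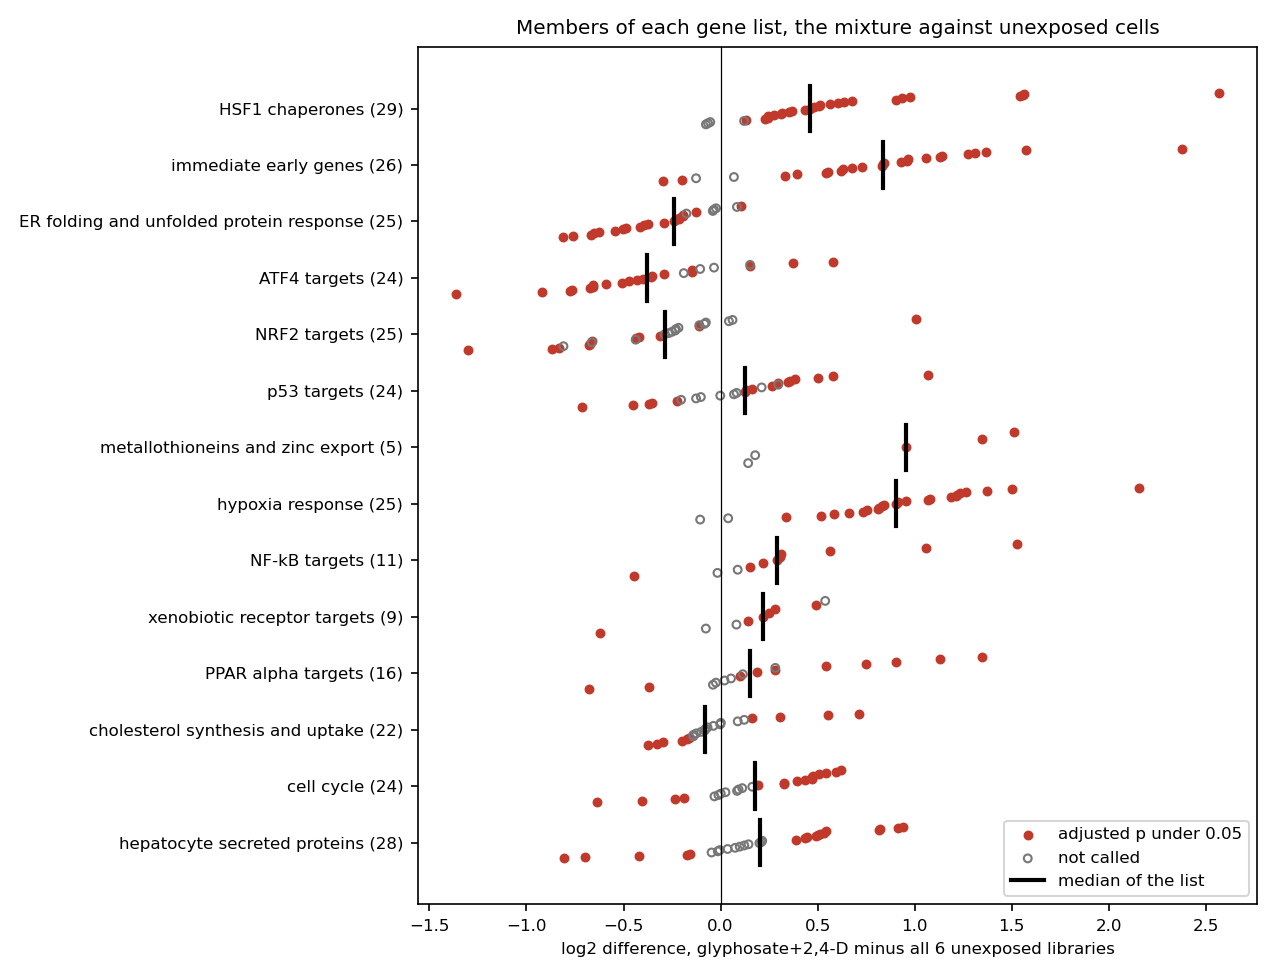
Log2 difference of the mixture from all 6 unexposed libraries for the tested members of 14 gene lists; filled points are called members and the bar is the list's median. Medians are 0.91 for hypoxia genes, 0.83 for immediate early genes and 0.46 for HSF1 chaperones, and -0.24 for ER folding genes, -0.29 for NRF2 targets and -0.38 for ATF4 targets.

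For NRF2 targets the answer depended on which unexposed libraries were used. Against all 6, 10 of 25 fell and 1 rose, where 22.7% of all tested genes fell and 25.4% rose. Against replicates 1 to 3, 23 fell and 1 rose, with a median of -0.75, beside 26.7% and 28.2% of all tested genes. Against replicates 4 to 6, 10 rose and 6 fell, with a median of 0.02. There 25% of all tested genes rose and 21.8% fell, so the share of NRF2 targets that fell was near that of all genes. The mixture lay between the means of the sets for 13 of the 25, against 2802 of all 13405 genes (20.9%), and 8 of the 25 were called with opposite signs, against 1.57% of all genes. TXNRD1, the cytosolic thioredoxin reductase, was picked as the example after its values were seen. It had 64.7, 63.4 and 63.4 FPKM in the mixture, 104 to 131 FPKM in the first unexposed set (replicates 1 to 3) and 36.8 to 39.7 FPKM in the second. The mixture libraries sat in the gap. Their difference was -0.88 ± 0.06 (adjusted p = 1.53e-09) against the first set and 0.71 ± 0.06 (adjusted p = 5.33e-08) against the second, and -0.08 ± 0.33 (adjusted p = 0.857) against all 6. NQO1, the quinone reductase that serves as the standard NRF2 readout, had 244, 253 and 257 FPKM in the mixture, 321 to 336 FPKM in the first set and 215 to 230 FPKM in the second. It differed by -0.39 and by 0.18. The antioxidant response element (TGAC and GC, 3 free bases apart, either strand) stood in a promoter of 4 of the 17 NRF2 targets with a RefSeq promoter (23.5%), in 9 of 20 ATF4 targets (45%), in 8 of 25 chaperones (32%), in 6 of 24 ER folding genes (25%) and in 15.02% of the promoters of tested genes.

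Other members held their sign. HMOX1, haem oxygenase, had 14.4, 15.1 and 14.7 FPKM in the mixture, 36.0 to 40.8 FPKM in the first unexposed set and 19.2 to 20.4 FPKM in the second. It was below both sets, by 1.34 and by 0.40. AKR1B10, an aldo-keto reductase of hepatoma cells, had 26.1, 24.8 and 30.4 FPKM in the mixture, 103 to 147 FPKM in the first set and 33.2 to 39.2 FPKM in the second, a difference of -2.19 and of -0.41.

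Hypoxia response genes were higher with few exceptions: 23 of 25 rose and none fell, with a median of 0.91. Over all tested genes 25.4% rose and 22.7% fell. All 23 (92%) were higher than both unexposed sets, beside 18.7% of all tested genes. The exceptions were DDIT4 and SLC2A1, and DDIT4 was called lower under TPM. SLC2A3 (GLUT3), a glucose transporter, had 52.3, 55.5 and 46.5 FPKM in the mixture and 9.17 to 13.7 FPKM in unexposed cells, a difference of 2.15. CA9, a carbonic anhydrase at the cell surface, had 38.8, 42.1 and 39.3 FPKM in the mixture and 10.8 to 17.1 FPKM in unexposed cells, a difference of 1.504. For both, every mixture library stood well above every unexposed one. ADM, the vasodilator adrenomedullin, had 16.3, 15.1 and 15.4 FPKM in the mixture and 4.99 to 6.92 FPKM in unexposed cells, a difference of 1.27. PFKFB3, which sets glycolytic flux, had 10.3, 8.87 and 9.81 FPKM in the mixture and 3.04 to 4.04 FPKM in unexposed cells, a difference of 1.23. None of these overlapped. Of 5 tested metallothionein and zinc export genes, 3 rose (MT2A, MT1G and MT1E), each higher than both sets, and reads may be shared between such near-identical genes. MT2A, which binds zinc and cadmium, had 43.1, 53.6 and 49.0 FPKM in the mixture and 13.1 to 19.8 FPKM in unexposed cells, a difference of 1.51.

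The p53 targets were divided. Of 24 tested, 11 rose and 5 fell, with a median of 0.13, where 25.4% of all tested genes rose and 22.7% fell. Under TPM 6 rose and 6 fell and the median was 0.00. Against unexposed replicates 1 to 3, 15 rose and 4 fell, but against replicates 4 to 6, 7 rose and 8 fell. Called higher than both sets were 7 (29.2%) and lower than both 4 (16.7%), against 18.7% and 16.1% of all tested genes. CDKN1A (p21), the cell cycle inhibitor, had 75.1, 70.5 and 70.6 FPKM in the mixture and 54.0 to 62.7 FPKM in unexposed cells. The groups did not overlap and the difference was 0.30 (adjusted p = 4.59e-05), though under TPM it was not called against replicates 1 to 3. PLK2, a kinase induced by stress and growth signals, had 6.22, 5.76 and 5.89 FPKM in the mixture and 2.15 to 2.52 FPKM in unexposed cells, a difference of 1.07. TP53I3, a quinone oxidoreductase, had 20.9, 19.3 and 18.3 FPKM in the mixture and 27.2 to 40.3 FPKM in unexposed cells, a difference of -0.72. Of 24 tested cell cycle genes, 12 rose and 4 fell, with a median of 0.18. Called higher than both sets were 9 (37.5%) and lower than both 2 (8.33%). The split was 16 higher and 2 lower against replicates 1 to 3 (median 0.36) and 10 higher and 6 lower against replicates 4 to 6 (median 0.12), the second turning to 4 higher and 9 lower under TPM. MCM2 and PCNA, of DNA replication and picked as examples, rose by 0.55 and 0.47, and the mitotic kinase CDK1 rose by 0.62. The 4 that fell were CDC20, by 0.64, PLK1, by 0.40, AURKB, by 0.23, and AURKA, by 0.19, and 8 members were not called.

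Of 11 tested NF-kB targets, 8 rose and IRF1 fell, by 0.45. Called higher against both unexposed sets were 5 (45.5%), as were 18.7% of all tested genes. Under TPM 5 rose and 2 fell. CCL20, a chemokine, had 248, 283 and 248 FPKM in the mixture, 46.7 to 54.0 FPKM in the first unexposed set and 147 to 163 FPKM in the second, a difference of 2.32 and of 0.74. It was higher than both sets, with sizes set by the choice of set. Of 9 tested targets of the receptors for foreign compounds, 5 rose and ALAS1, the first enzyme of haem synthesis, fell by 0.62. Against replicates 1 to 3, 4 rose and 3 fell, and against replicates 4 to 6, 7 rose and 1 fell. Called higher against both sets were 3 (33.3%, again beside 18.7% of all tested genes). Called with opposite signs against the sets were 2 (22.2%), beside 1.57% of all tested genes. Under TPM 3 rose and 1 fell against all 6. CYP2B6, a drug-metabolising cytochrome, had 15.9, 15.3 and 16.7 FPKM in the mixture and 12.2 to 16.0 FPKM in unexposed cells, which overlapped, with a difference of 0.22. CYP1A1, the main target of the aryl hydrocarbon receptor, was not called against all 6 (0.54). Of 16 tested PPAR alpha targets, 8 rose and 2 (EHHADH and CPT2) fell, and under TPM 6 rose and 4 fell. Called higher than both sets were 5 (31.25%) and lower than both 2 (12.5%), against 18.7% and 16.1% of all tested genes. PLIN2, the coat protein of lipid droplets, had 267, 280 and 262 FPKM in the mixture and 90.9 to 157 FPKM in unexposed cells, a difference of 1.13. ANGPTL4, an inhibitor of lipoprotein lipase that hypoxia also raises, differed by 1.35. Of 22 tested cholesterol genes, 4 rose (among them DHCR7 by 0.55, FDPS by 0.30 and EBP by 0.16) and 6 fell, with a median of -0.08, shares near the 25.4% higher and 22.7% lower over all tested genes; under TPM 3 rose and 14 fell.

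Of 28 tested hepatocyte secreted proteins, 12 rose and 5 fell, with a median of 0.21. Called higher than both unexposed sets were 10 (35.7%) and lower than both 4 (14.3%), against 18.7% and 16.1% of all tested genes. Against replicates 1 to 3, 16 rose and 4 fell (median 0.47), and against replicates 4 to 6, 10 rose and 6 fell (median 0.05). Under TPM the comparison with replicates 4 to 6 became 8 higher and 12 lower (median -0.05). ALB had 4132, 4390 and 4279 FPKM in the mixture and 2249 to 4004 FPKM in unexposed cells, a difference of 0.50 (adjusted p = 0.00501). It was 0.80 against replicates 1 to 3 and 0.21 against replicates 4 to 6, the second not called under TPM. TTR, the thyroxine carrier transthyretin, had 78.3, 83.0 and 86.0 FPKM in the mixture and 29.6 to 62.5 FPKM in unexposed cells, a difference of 0.92. F7 (coagulation factor VII) and SERPINC1 (antithrombin) were the members lower by most, by 0.81 and 0.70. HNF4A, the master regulator of hepatocyte genes, had 25.4, 25.0 and 26.6 FPKM in the mixture and 43.1 to 45.6 FPKM in unexposed cells, a difference of -0.78 with a wide gap between the groups.

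By the rule on protein-coding genes with the largest difference from both unexposed sets, the 12 higher ones were HSPA6, CYR61, SLC2A3, AKAP12, IGFBP3, DKK1, ANKRD1, GADD45B, IGFBP2, MT2A, TPM2 and HSPA1A. IGFBP3, a binding protein of insulin-like growth factors, had 18.4, 18.6 and 17.3 FPKM in the mixture and 0.879 to 4.65 FPKM (median 2.45) in unexposed cells, a difference of 2.54, made up of 3.19 against replicates 1 to 3 and 1.89 against replicates 4 to 6. DKK1, a secreted Wnt antagonist, had 28.8, 27.9 and 27.5 FPKM in the mixture and 1.94 to 7.72 FPKM in unexposed cells, a difference of 2.47. AKAP12, a scaffold for protein kinase A, had 158, 182 and 148 FPKM in the mixture and 23.3 to 46.8 FPKM in unexposed cells, a difference of 2.23. In IGFBP3, DKK1 and AKAP12 the 6 unexposed libraries were spread widely. The rule took only called genes whose 3 mixture libraries lay outside all 6 unexposed ones. For the genes it gave, lack of overlap was thus fixed by the choice and is not a result. ANKRD1, like CYR61 a YAP target, had 30.0, 26.4 and 27.1 FPKM in the mixture and 6.46 to 7.54 FPKM in unexposed cells, a difference of 1.84. The 12 lower ones were KLHDC7B, SLC6A9, SLC26A1, SLC16A13, METTL7A, AKR1D1, AVIL, ZBED3, UCP2, TMEM150B, KLF15 and DDX28. KLHDC7B, a kelch-domain protein, had 9.39, 8.79 and 8.91 FPKM in the mixture and 23.4 to 33.8 FPKM in unexposed cells, a difference of -1.48. UCP2, a carrier of the inner mitochondrial membrane, had 5.85, 5.31 and 5.04 FPKM in the mixture and 11.4 to 21.3 FPKM in unexposed cells, a difference of -1.37. KLF15, a factor of fasting metabolism in liver, had 1.21, 0.779 and 0.616 FPKM in the mixture and 2.44 to 4.00 FPKM in unexposed cells, a difference of -1.17 at a low level.

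Set against the other exposures, the mixture differed little. Against the mean of the other 4, limma called 0 genes (0% of those tested), with 1022 at an unadjusted p under 0.05, and no member of any list was called. The 3 mixture libraries lay outside all 12 others for 185 genes (1.38%), 70 higher (0.522%) and 115 lower (0.858%). The median 95% interval of a gene reached 0.145 to each side (log2). This fit held the 6 unexposed libraries as 1 group, so the gap between their 2 sets counted as spread. Without them the median interval reached 0.124. How far that gap bears on the 0 calls was not tested. When the 15 exposed libraries were fitted without the unexposed ones, 12 genes (0.0895%) were called: HPD, NUPR1 and SULT1A1 were higher, and TP53INP2, FAT1, ARFGEF3, RAPGEF5, UTRN, SPRY4, NCR3LG1, AC254633.1 and AP000525.1 lower, all at an adjusted p of 0.0459. The count was 0 to 1 when any 1 library was left out, except 36 without AMPA plus 2,4-D replicate 2.

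NUPR1 was the 1 member of the stress gene lists among those 12. Its 8.59, 7.70 and 8.38 FPKM in the mixture lay above all 12 other exposed libraries (5.86 to 7.63 FPKM) and below unexposed cells (12.5 to 17.2 FPKM). The difference from the other exposures was 0.26 ± 0.04 in the fit of exposed libraries alone and 0.26 ± 0.07 (adjusted p = 0.325) with the unexposed libraries in the fit. HSPA6 had a mean of 13.4 FPKM in the mixture, 11.1 in AMPA plus 2,4-D, 9.48 in 2,4-D, 9.29 in glyphosate and 8.76 in AMPA. The 3 mixture libraries overlapped the other exposures (7.44 to 12.2 FPKM). Its difference from their mean was 0.39 ± 0.15 (95% interval 0.09 to 0.70, adjusted p = 0.523), the largest among the chaperones and not called. HSPA1A differed by 0.03 (95% interval -0.18 to 0.24) and DNAJB1 by -0.07 (-0.15 to 0.01). HSPA5 differed by -0.01 (-0.11 to 0.10) and DDIT3 by -0.08 (-0.25 to 0.10). For these 4 genes the intervals leave out changes as large as those from unexposed cells, and they do not show that the exposures act alike.

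Other genes singled out by their p against the mean of the other exposures had small differences and none was called in the fit with unexposed cells (adjusted p = 0.208 for each). GSTA4, a glutathione transferase for lipid aldehydes, had 4.28, 4.72 and 4.78 FPKM in the mixture, 2.79 to 4.41 FPKM in the other exposures and 4.29 to 5.11 FPKM in unexposed cells, a difference of 0.40 from the other exposures. HPD, an enzyme of tyrosine breakdown, had 175, 191 and 187 FPKM in the mixture, 154 to 176 FPKM in the other exposures and 183 to 209 FPKM in unexposed cells, a difference of 0.19. CAT (catalase, which removes hydrogen peroxide) had 14.3, 15.2 and 13.6 FPKM in the mixture and 10.9 to 13.9 FPKM in the other exposures, a difference of 0.23. For GSTA4 and HPD the mixture was nearer to unexposed cells than most other exposed libraries were. Among the lower genes, ARFGEF3, a protein with a GTPase exchange domain, had 9.83, 9.68 and 9.70 FPKM in the mixture and 11.0 to 12.6 FPKM in the other exposures, a difference of -0.23. IDS, a lysosomal sulfatase, had 3.39, 3.82 and 3.55 FPKM in the mixture, 3.87 to 4.70 FPKM in the other exposures and 2.74 to 2.90 FPKM in unexposed cells. DKK1 and CYP2B6 had all 3 mixture libraries below all 12 others, at 29.7 to 48.0 FPKM for DKK1 and 17.1 to 20.04 FPKM for CYP2B6, without being called.

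Each of 4 pairs was then compared, with p-values adjusted over genes within a pair. For pairs, the fit of the 15 exposed libraries alone was chosen after seeing the data. The mixture and glyphosate alone shared the glyphosate dose; 0 genes (0%) were called, 1066 had an unadjusted p under 0.05, and 4 (0.0298%) were called among exposed libraries alone: TECTB higher, and IL11, ARFGEF3 and SPRY4 lower. That count was 0 to 5 with 1 of the 15 libraries left out, and 0 without any 1 glyphosate library, without AMPA replicate 2 or 3, or without glyphosate plus 2,4-D replicate 2 or 3. The mixture and 2,4-D alone shared the 2,4-D dose; 0 (0%) were called in either fit, with 578 at an unadjusted p under 0.05. A gene's median 95% interval in a pair reached 0.183 to each side, so smaller shifts were not detectable for a typical gene. That interval is not adjusted over genes and the calls are, so larger shifts could go uncalled too. Against AMPA alone, where no dose is shared, 5 genes (0.0373%) were called: TECTB was higher, and SF3A1, TP53INP2, IDS and ANKRD1 were lower. ANKRD1 was lower by 0.46 ± 0.08 (adjusted p = 0.0479). No gene was called with a pseudocount of 0.1, without the filter, under TPM, with median-of-ratios scaling or with the compared groups alone. Among exposed libraries alone 37 (0.276%) were called, and 1 to 55 with 1 of the 15 libraries left out: 1 without any 1 glyphosate plus 2,4-D library, without AMPA replicate 2 or 3 or without AMPA plus 2,4-D replicate 1, 2 to 3 without glyphosate replicate 1 or 2 or 2,4-D replicate 1 or 3, and 15 without AMPA replicate 1. In that fit NUPR1 was higher by 0.37, and PFKFB3 was lower by 0.42, CYP2B6 by 0.27 and SLC2A1 by 0.23.

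The most calls came against AMPA plus 2,4-D, which shares the 2,4-D dose but holds AMPA at 34 µM where the mixture holds glyphosate at 5.6 µM, so the doses of these related compounds differ. Of all tested genes 35 (0.261%) were called, 20 higher (0.149%) and 15 lower (0.112%). CYR61 had 37.7, 44.0 and 44.9 FPKM in the mixture and 29.0, 28.7 and 29.4 FPKM in AMPA plus 2,4-D, a difference of 0.52 ± 0.09 (adjusted p = 0.0337). DNAJB11, an ER co-chaperone of HSPA5, had 42.7, 41.7 and 41.2 FPKM in the mixture and 49.6, 47.9 and 50.5 FPKM in AMPA plus 2,4-D, against 48.6 to 50.8 FPKM in unexposed cells. The AMPA mixture thus stood at the unexposed level, and the difference between the mixtures was -0.23 ± 0.03 (adjusted p = 0.00741). NFKB2, an NF-kB subunit, had 9.05, 9.03 and 8.82 FPKM in the mixture and 7.09, 7.43 and 7.61 FPKM in AMPA plus 2,4-D, a difference of 0.25. TKT, of the pentose phosphate path, differed by 0.18. These calls rest on few libraries: 0 genes were called with the compared groups alone, 0 without AMPA plus 2,4-D replicate 3, 3 without its replicate 1 and 541 without its replicate 2, and 12, 3 and 8 without glyphosate plus 2,4-D replicate 1, 2 and 3.

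Among exposed libraries alone 462 genes (3.45%) were called in that pair, 255 higher and 207 lower. Of the 25 ER folding genes 7 were lower and none higher: DNAJB11 by 0.23, HSP90B1 by 0.21, SEL1L by 0.19, DNAJC3 and PDIA3 by 0.17 each, CANX by 0.16 and PDIA6 by 0.13, with a list median of -0.10. Of the 29 chaperones HSPB1 was higher by 0.28 and HSPA4 lower by 0.19. Enzymes of cholesterol synthesis gave 4 higher (DHCR7 by 0.33, FDPS by 0.23, FDFT1 by 0.21 and EBP by 0.20), and CA9 was higher by 0.44, MT1G by 0.61 and APOC3 by 0.49. The count moved between 24 and 1270 when 1 library was left out (24 without AMPA plus 2,4-D replicate 3, 55 without its replicate 1, 1270 without its replicate 2, and 78 to 191 without a glyphosate plus 2,4-D library), and the ER folding genes called lower between 1 and 7.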

How the data were processed

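RNA from unexposed and exposed C3A cells was sequenced, and the authors deposited 6 tables of FPKM per gene, 21 libraries in all. Per the submitters' processing notes, HISAT2 2.0.5 and featureCounts 1.5.0-p3 were used; the build named is GRCh38. The strandedness of the kit is not given in the sources used here, so overlapping and antisense genes are uncertain. Tables were joined on gene ID, and 23375 of 28808 genes were in all 6. Only these could be tested, which left out 45 genes that passed the FPKM filter. FPKM times gene length gave whole reads (within 0.1 of a whole number), 15.2 to 24.4 M per library, which set the precision of low genes. Groups came from the labels. limma 3.58.1 (R 4.3.3, mean-variance trend) was fitted over all 21 libraries on log2(FPKM + 1) for genes with at least 1 FPKM in at least 3 libraries; unexposed replicates 1 to 3 and 4 to 6 were separate groups in a further fit. It was tested on simulated data. Alternatives were a pseudocount of 0.1, other filters, TPM, median-of-ratios scaling, voom on recovered reads, a robust prior, a replicate block, fewer groups and leaving out libraries. Genes and lists, promoters and comparisons were chosen with earlier results of these data known. Named genes were first the 12 higher and 12 lower protein-coding genes with the largest difference from both unexposed sets. Only genes called against both sets, with all 3 mixture libraries outside all 6 unexposed ones, could enter. Next came the 3 smallest p in each direction against the other exposures. Each list added up to 5 members by p against unexposed cells and up to 4 by p against the other exposures. A set of 14 stress genes was always named. Others are named where a count of few members needed it. Some are examples picked outside these rules, among them MCM2, PCNA, CA9 and HSPD1. ME1, MT1H, IL6, CCL2, CYP4A11 and INSIG1 of the lists, and 5 markers of other cell types, were not analysed here. Values of some single genes of the lists are not reported here.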

Additional observations from a re-analysis of the deposited data

Results flagged for a closer look

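Among 142 named genes checked in the 6 unexposed libraries, 4 had a library far from the others. Chance flags about 1 in 20, a rate that 4 of 142 does not exceed. That rate holds for libraries of 1 population, and replicates 1 to 3 and 4 to 6 stood apart for many genes. HPD had 183.2 FPKM in unexposed replicate 3 and 202 to 209 FPKM in the other 5. ORM2, an acute phase protein, had 104.7 FPKM in unexposed replicate 3 and 130 to 142 FPKM in the others. AVIL, an actin-binding protein, had 7.807 FPKM in unexposed replicate 3 and 9.24 to 10.1 FPKM in the others. MXI1, an antagonist of MYC, had 4.565 FPKM in unexposed replicate 5 and 5.34 to 5.73 FPKM in the others.

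Several named genes differed between the mixture and another exposure by limma's test of that difference (adjusted p under 0.05). Against AMPA alone, IDS differed by -0.2587 and ANKRD1 by -0.4572 (log2). Against AMPA plus 2,4-D, CYR61 differed by 0.5201, HPD by 0.2564, NFKB2 by 0.2518 and TKT by 0.1784, and NCR3LG1, a ligand of the natural killer receptor NKp30, differed by -0.3083 and DNAJB11 by -0.231. All of these rest on few libraries, as the counts without single libraries show.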

How the results depend on the processing

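The counts against unexposed cells stayed within 1.5 times under every alternative run: 5379 to 7176 over other settings and 5452 to 6554 when 1 library was left out, against replicates 1 to 3 6844 to 7922 and 6721 to 6867, and against replicates 4 to 6 5850 to 6576 and 5565 to 5816. The 7176 came from the replicate block, whose unexposed reference is replicates 1 to 3 alone. Without unexposed replicates 1-3 or 4-6 as a whole the highest count was 7233. The small counts between exposures moved. Against the mean of the other exposures they were 1 without the filter, 12 with the compared groups alone and 0 to 1 with 1 library left out. Against glyphosate they were 4 with the 15 exposed libraries alone and 0 with a library left out, and against 2,4-D 0 in each of these. Against AMPA they were 0 with a pseudocount of 0.1, without the filter, with median-of-ratios scaling, under TPM, with the compared groups alone and with a robust prior, 3 with voom on recovered reads, 37 with the 15 exposed libraries alone and 0 to 1 with a library left out. Against AMPA plus 2,4-D they were 18 without the filter, 0 with the compared groups alone, 19 with voom, 462 with the 15 exposed libraries alone and 0 to 541 with a library left out. The cause was not tested.

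The replicate block gave 7176 calls against unexposed cells and 10 against the mean of the other exposures. It gave 13 against glyphosate, 1 against 2,4-D, 31 against AMPA and 381 against AMPA plus 2,4-D. Numbers 4 to 6 occur only among unexposed libraries, so the block fits each of those libraries by itself. Its unexposed reference is thus replicates 1 to 3 alone, and its median difference, 0.004, equals that of the fit against them. How far the block's counts between exposures come from this was not tested. Same-numbered libraries deviated from their group means with correlations of -0.119 to 0.0884, so the samples share only a number. The block could not be fitted with unexposed replicates 1 to 3 and 4 to 6 apart. The group of replicates 4 to 6 and the block's terms for those numbers then describe the same libraries.

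Under TPM, signs turned for ERO1B (-0.0215), TNFRSF10B (-0.00701) and HADHB (-0.11) against unexposed cells, and for HADHB (-0.10) and FDFT1 (-0.0116) against replicates 1 to 3. NQO1 turned to 0.18 without unexposed replicates 1-3. Over all named genes reported and alternatives, 11402 values kept direction and call, 143 lost the call, 54 gained it and 6 turned. Depth limits genes near 1 FPKM most.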
